A study of Homo sapiens with 372 samples.

Results

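The genes described here are BRCA1, BRCA2, BARD1, PALB2, RAD51C, RAD51AP1, FANCI, FANCD2 and CHEK1, which act in homologous recombination, in the Fanconi anemia pathway and in the checkpoint that accompanies them. They were taken by symbol from a table of 9664 genes, and all 9 were found in it. Of the 9664 genes, 9655 were seen in more than 30% of cells in 1 or more conditions, the 9 repair genes among them.

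RNA was measured in single A2780 cells, an established human ovarian cancer line, in 6 conditions. Ctrl were 46 untreated control cells. Pac16h and Pac48h were 56 and 53 cells given 5 nM paclitaxel for 16 or 48 h, Cele2h and Cele16h were 63 and 61 cells given 75 µM celecoxib for 2 or 16 h, and PacCele16h were 59 cells given both drugs at these doses for 16 h. Paclitaxel stabilizes microtubules, and celecoxib inhibits cyclooxygenase enzymes. Every condition was 1 capture run with no replicate culture named, so it counts as 1 sample, and no test between conditions was made from its cells. Each SD below is a spread over cells.

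Homologous recombination repairs a broken chromosome by copying the intact sister chromatid, and so works mainly while DNA is being replicated and before mitosis. BRCA1 with its partner BARD1 promotes the trimming of the broken ends. PALB2 joins BRCA1 to BRCA2, which prepares the exposed single strand for the search of the sister chromatid. The Fanconi pathway attaches ubiquitin to the FANCI and FANCD2 pair at crosslinks between the DNA strands and hands the break that follows to the same recombination proteins. Several of these genes are known targets of the E2F factors that drive the entry into S phase, and loss of homologous recombination is common in ovarian cancer.

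The promoters of the genes were searched in windows of 300 bases, from 250 before to 50 after the transcription start, taken from RefSeq on GRCh38.p14. Windows were given for 8 of the 9 genes, with no entry for FANCI. The letters searched on both strands were TTTGGCGC and GGCGGGAA, which are forms of the E2F site, TTTGAA, a core of the cell cycle homology region, and CCAAT, the site of the NF-Y factor. GGCGGGAA was found in the windows of RAD51AP1 and FANCD2, which are shown because no other window held this E2F form. It starts 22 bases before the start of RAD51AP1 and 3 bases before that of FANCD2. The capitals mark it, and in RAD51AP1 also mark ATTGG, the reverse of CCAAT, whose first base lies 70 bases before the start.
RAD51AP1, chr12:4538640-4538939, plus strand: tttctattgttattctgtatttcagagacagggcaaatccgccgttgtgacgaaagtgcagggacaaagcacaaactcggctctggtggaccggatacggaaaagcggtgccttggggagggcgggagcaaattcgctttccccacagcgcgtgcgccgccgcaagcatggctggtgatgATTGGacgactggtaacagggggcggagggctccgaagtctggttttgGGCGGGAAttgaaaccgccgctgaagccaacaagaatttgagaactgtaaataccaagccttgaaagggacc
FANCD2, chr3:10026187-10026486, plus strand: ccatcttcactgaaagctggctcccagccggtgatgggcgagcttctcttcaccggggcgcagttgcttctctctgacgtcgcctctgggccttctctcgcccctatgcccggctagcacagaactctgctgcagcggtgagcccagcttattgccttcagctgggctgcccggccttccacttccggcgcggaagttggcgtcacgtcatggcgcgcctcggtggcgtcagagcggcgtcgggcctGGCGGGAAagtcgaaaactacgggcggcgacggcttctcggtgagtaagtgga
By count, 2 of 8 genes held GGCGGGAA, 4 of 8 (BRCA1, RAD51AP1, CHEK1 and PALB2) held CCAAT, and 0 of 8 held TTTGGCGC or TTTGAA. A gene was counted when any of its windows held the letters, whereas the shares that follow are per window. BRCA1 and RAD51C had 2 windows each and CHEK1 had 3, and BRCA1 held CCAAT in 1 of its 2. Of all 35116 promoter windows of the same length, 3.16% held GGCGGGAA, 34.6% held CCAAT, 0.652% held TTTGGCGC and 15.2% held TTTGAA. Of the 11001 windows of genes in the expression table, 5.16% held GGCGGGAA, 35.7% held CCAAT, 1.08% held TTTGGCGC and 10.2% held TTTGAA. A match gives only the letters of these windows, and occupancy by a factor was not measured.

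The deposited E-value is log2(N/10 + 1), where N is the TPM (a length-corrected share of transcripts) of a gene after division by the most abundant spike-in RNA of the same cell. N is per transcript length, so that levels of different genes can be set side by side. A cell was taken to detect a gene when its E-value was above 0. A difference in mean E-value was counted as past the limit beyond 1.5-fold, which is 0.58 on the log2 scale. This is a limit of size and not a test, and on this scale the change of a weakly expressed gene is understated. Because the spike-in scaling carries the total RNA of a cell into every gene, each difference was also taken with all cells brought to the same linear total, called the same total below. The median total of the treated conditions differed from that of control by between −1.52 (Cele16h) and 0.49 (PacCele16h) on the log2 scale. The median number of genes detected per cell was 6630 in control and between 6126 and 6351 in the treated conditions, and read depth per cell is unknown. Of the retained cells, the control cells carried library sheet numbers of block 4, Pac16h cells those of block 1, Cele2h cells those of block 2 and Cele16h cells those of block 3, so for these conditions the block, the run and the drug cannot be told apart. Pac48h cells were in block 2 (22 cells) and block 4 (31 cells), and PacCele16h cells in block 1 (34 cells) and block 3 (25 cells). For the label of the line, KRT10, VIM and KRT18 were listed and detected in 94.7%, 74.0% and 28.4% of all cells. The epithelial and Müllerian markers KRT8, PAX8, EPCAM, CDH1 and MUC16 were not listed, nor was the cadherin CDH2. Of 9 markers of blood, endothelial and stromal cells, COL3A1 and LUM were listed, in 68.3% and 15.4% of cells, with mean E-values between 0.88 and 1.89 and between 0.48 and 0.88 over the conditions.

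In control cells RAD51C was the most abundant of the 9 genes and PALB2 the least. The mean E-values were 5.17 for RAD51C, 3.06 for CHEK1, 2.96 for FANCI, 2.66 for RAD51AP1, 2.30 for FANCD2, 1.65 for BARD1, 1.31 for BRCA2, 1.23 for BRCA1 and 0.90 for PALB2. The SD over cells was between 0.94 (RAD51C) and 1.89 (RAD51AP1), so that no pair of neighbours in this order differed by more than the spread over cells except RAD51C and CHEK1. As linear means these levels were 423 normalized TPM for RAD51C, between 68.9 and 124 for the next 4 genes, and between 18.0 and 34.6 for BARD1, BRCA2, BRCA1 and PALB2. RAD51C also led in each of the 5 treated conditions, and PALB2 was the lowest of the 9 in each.

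**Figure D1:**
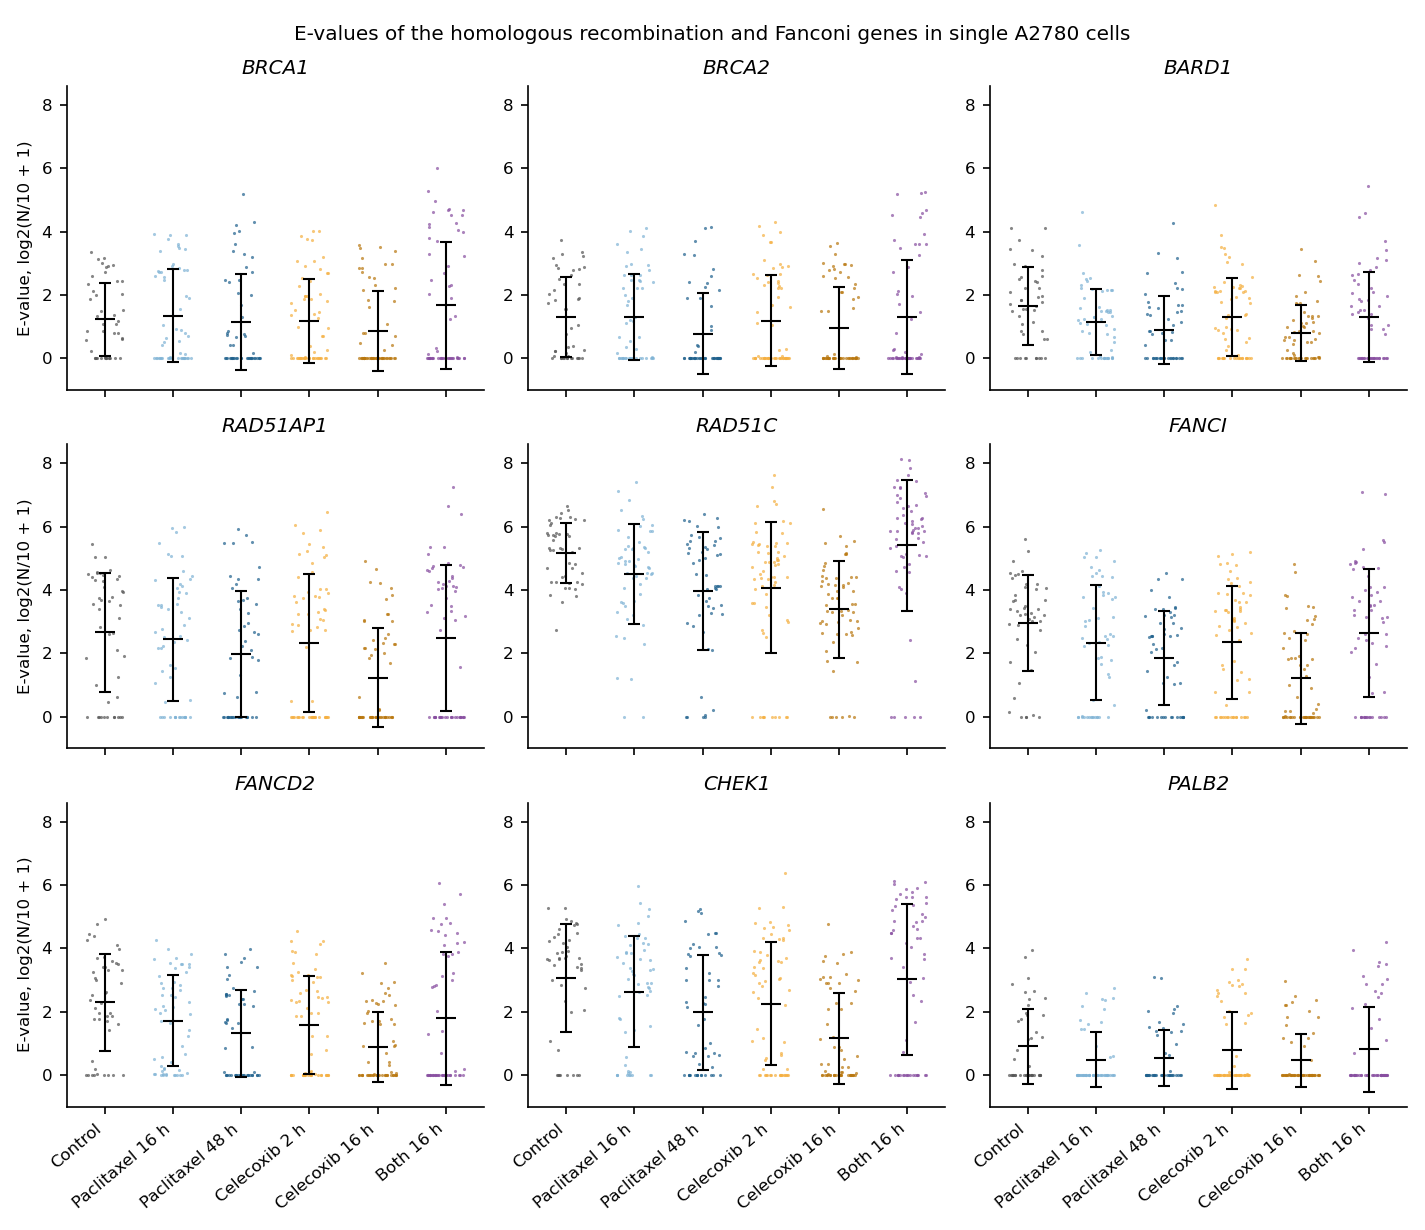
E-value of each of the 9 genes (vertical axis, log2 scale) in every single cell (points) of the 6 conditions (horizontal axis), with the mean and SD over cells as black bars. RAD51C is at least 2.75 in each control cell, while in the other genes many cells are at 0, and in Cele16h cells the points of CHEK1, FANCI, FANCD2 and RAD51AP1 shift toward 0.

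Gene coordinates here are those of GENCODE version 44 on hg38. BRCA1, on chromosome 17, encodes a ubiquitin ligase that needs BARD1 for its activity. Its E-value ran from 0 over a median of 0.97 to 3.36 in control cells, and from 0 over 0.15 to 6.00 in PacCele16h cells. The mean was 1.23 ± 1.16 in control (SD, n = 46 cells), 1.35 ± 1.46 in Pac16h and 1.15 ± 1.53 in Pac48h cells, 1.17 ± 1.33 in Cele2h and 0.87 ± 1.26 in Cele16h cells, and 1.67 ± 2.00 in PacCele16h cells. All of these means lie within 1 SD of control, and no treatment passed the limit. The gene was detected in 69.6% of control cells (exact Clopper-Pearson 95% interval 54.3 to 82.3%, counting error only), in 41.0% (28.6 to 54.3%) in Cele16h cells and in 52.5% (39.1 to 65.7%) in PacCele16h cells. The share was lower in each treatment than in control, though each interval touched that of control. Among the cells that detected it, the mean E-value was 1.77 in control and 3.18 in PacCele16h cells, where 5 of 59 cells held 41.9% of its linear sum. A ratio of linear means therefore gave a log2 difference of 1.71 in PacCele16h cells, against 0.44 by mean E-values, and 0.60 against −0.08 in Pac48h cells.

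BARD1 (chr2:214725646-214809683, minus strand) passed the limit where BRCA1 did not. It ran from 0 over a median of 1.68 to 4.13 in control cells, and from 0 over 0.59 to 3.46 in Cele16h cells. Its mean was 1.65 ± 1.22 in control, 1.14 ± 1.04 in Pac16h and 0.91 ± 1.07 in Pac48h cells, 1.304 ± 1.24 in Cele2h and 0.79 ± 0.88 in Cele16h cells, and 1.31 ± 1.41 in PacCele16h cells. It was past the limit in Pac48h cells, by −0.74, and in Cele16h cells, by −0.86, differences smaller than the SD over cells. The linear mean of BRCA1 over that of BARD1 was 0.65 in control, 1.63 in Pac16h and 2.06 in Pac48h cells, 0.95 in Cele2h and 1.59 in Cele16h cells, and 2.13 in PacCele16h cells. The mean of BARD1 was thus the higher one in control and in Cele2h cells, and that of BRCA1 in the other 4 conditions.

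BRCA2, on chromosome 13, acts at the trimmed break in strand exchange, and PALB2 (chr16:23603160-23641321, minus strand) anchors it there. BRCA2 ran from 0 over a median of 1.01 to 3.75 in control cells, and from 0 over 0 to 4.16 in Pac48h cells. Its mean was 1.31 ± 1.28 in control, 1.31 ± 1.37 in Pac16h and 0.78 ± 1.28 in Pac48h cells, 1.19 ± 1.44 in Cele2h and 0.96 ± 1.29 in Cele16h cells, and 1.31 ± 1.81 in PacCele16h cells. The difference in Pac48h cells, −0.52, was its largest and did not reach the limit. BRCA2 was detected there in 35.8% of cells (23.1 to 50.2%), against 73.9% of control cells (58.9 to 85.7%). The cells that still detected it had a mean E-value of 2.19 against 1.77 in control. PALB2 was at 0 in most cells of all 6 conditions. It was detected in 45.7% of control cells (30.9 to 61.0%) and in between 26.8% (Pac16h) and 36.5% (Cele2h) of treated cells. Its mean E-value was 0.90 ± 1.19 in control and between 0.46 and 0.81 in the treated conditions, within the limit in each.

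RAD51C (chr17:58692573-58735611, plus strand), a factor of strand exchange, was detected in all 46 control cells (92.3 to 100%). In these it ran from 2.75 over a median of 5.32 to 6.66, and no control cell fell to the level of 0 that some cells reached in each treatment. In Cele16h cells it ran from 0 over 3.56 to 6.56, and in PacCele16h cells from 0 over 5.88 to 8.15. The mean was 5.17 ± 0.94 in control, 4.50 ± 1.58 in Pac16h and 3.96 ± 1.86 in Pac48h cells, 4.08 ± 2.07 in Cele2h and 3.39 ± 1.52 in Cele16h cells, and 5.41 ± 2.08 in PacCele16h cells. RAD51C was thus lower past the limit in the 4 single-drug conditions, by between −0.67 and −1.78, or 1.59-fold to 3.44-fold. In PacCele16h cells it differed by 0.24. In units of the SD over control cells the difference was −0.71 (Pac16h), −1.28 (Pac48h), −1.16 (Cele2h) and −1.89 (Cele16h).

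RAD51AP1 (chr12:4538798-4560047, plus strand) encodes a protein that stimulates strand pairing. It was at 0 in part of the cells of each condition. It ran from 0 over a median of 3.47 to 5.45 in control cells, from 0 over 0 to 4.92 in Cele16h cells, and from 0 over 3.19 to 7.27 in PacCele16h cells. The mean was 2.66 ± 1.89 in control, 2.44 ± 1.94 in Pac16h and 1.98 ± 2.00 in Pac48h cells, 2.33 ± 2.17 in Cele2h and 1.23 ± 1.57 in Cele16h cells, and 2.48 ± 2.30 in PacCele16h cells. It was lower past the limit in Pac48h cells (−0.68) and in Cele16h cells (−1.44, or 2.70-fold). The share of cells that detected it was 76.1% in control (61.2 to 87.4%), 45.9% in Cele16h cells (33.1 to 59.2%) and 57.6% in PacCele16h cells (44.1 to 70.4%). In PacCele16h cells the share differed between the blocks of sheet numbers, at 70.6% in block 1 and 40.0% in block 3.

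FANCI (chr15:89243945-89317261, plus strand) and FANCD2 (chr3:10026370-10101932, plus strand) encode the pair that receives ubiquitin in the Fanconi pathway. FANCI ran from 0 over a median of 3.25 to 5.61 in control cells, from 0 over 0.24 to 4.81 in Cele16h cells and from 0 over 3.12 to 7.09 in PacCele16h cells. Its mean was 2.96 ± 1.52 in control, 2.34 ± 1.81 in Pac16h and 1.86 ± 1.49 in Pac48h cells, 2.34 ± 1.79 in Cele2h and 1.21 ± 1.44 in Cele16h cells, and 2.64 ± 2.03 in PacCele16h cells. FANCI passed the limit in all 4 single-drug conditions, by −0.63, −1.11, −0.62 and −1.75 in that order. Only the last of these exceeded the SD over control cells. FANCD2 ran from 0 over a median of 2.44 to 4.91 in control cells, from 0 over 0.07 to 3.52 in Cele16h cells and from 0 over 0.14 to 6.06 in PacCele16h cells. Its mean was 2.30 ± 1.53 in control, 1.71 ± 1.43 in Pac16h and 1.31 ± 1.38 in Pac48h cells, 1.57 ± 1.54 in Cele2h and 0.89 ± 1.11 in Cele16h cells, and 1.79 ± 2.10 in PacCele16h cells. Its differences, −0.58, −0.99, −0.73 and −1.41 for the single-drug conditions, passed the limit in 3 of 4, with Pac16h just inside it. Of PacCele16h cells 50.8% detected FANCD2 (37.5 to 64.1%), against 82.6% in control (68.6 to 92.2%), and the detecting cells had a mean of 3.53 against 2.78. By block this share was 64.7% in block 1 and 32.0% in block 3. The FANCI to FANCD2 ratio of linear means stayed between 1.58 and 2.13 in the 6 conditions.

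CHEK1 (chr11:125625163-125676255, plus strand) encodes the kinase that holds the cell cycle while replication is damaged. It ran from 0 over a median of 3.66 to 5.28 in control cells, from 0 over 0.25 to 4.76 in Cele16h cells and from 0 over 3.81 to 6.12 in PacCele16h cells. The mean was 3.06 ± 1.70 in control, 2.63 ± 1.76 in Pac16h and 1.98 ± 1.83 in Pac48h cells, 2.25 ± 1.94 in Cele2h and 1.16 ± 1.44 in Cele16h cells, and 3.03 ± 2.39 in PacCele16h cells. CHEK1 showed the largest difference of the 9 genes in Cele16h cells, −1.90, or 3.73-fold, which was −1.11 in units of the SD over control cells. The linear mean was 29.1 normalized TPM there, against 124 in control. Unlike in BRCA1 and BRCA2, the cells that still detected CHEK1 in Cele16h cells were also lower, with a mean of 1.91 against 3.70.

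Counted over the 9 genes, 2 were lower past the limit in Pac16h cells, where 37.3% of all 9655 genes were. In Pac48h cells 6 were lower, with 26.6% of all genes. In Cele2h cells 4 of 9 were lower beside 25.7% of all genes, and in Cele16h cells 6 of 9 beside 43.9%. In PacCele16h cells 0 of 9 were lower beside 1.76% of all genes. No gene of the 9 was higher past the limit in any treatment, where 0.0932%, 0.922%, 1.12%, 0.383% and 30.4% of all genes were, in the order Pac16h, Pac48h, Cele2h, Cele16h and PacCele16h. The count in Pac16h cells was thus below the share of all genes, those in Pac48h cells and after celecoxib were above it, and in PacCele16h cells none of the 9 had joined the genes that were higher.

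The medians over the 9 genes were read beside those of all genes. In Pac16h cells the median difference was −0.43, beside −0.41 over all genes. For Pac48h it was −0.74 beside −0.26, and in Cele2h and Cele16h cells −0.35 beside −0.26 and −1.41 beside −0.48. In PacCele16h cells the median of the 9 was −0.10 while that of all genes was 0.33. All 5 comparisons share the control cells and are not independent of each other.

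**Figure D2:**
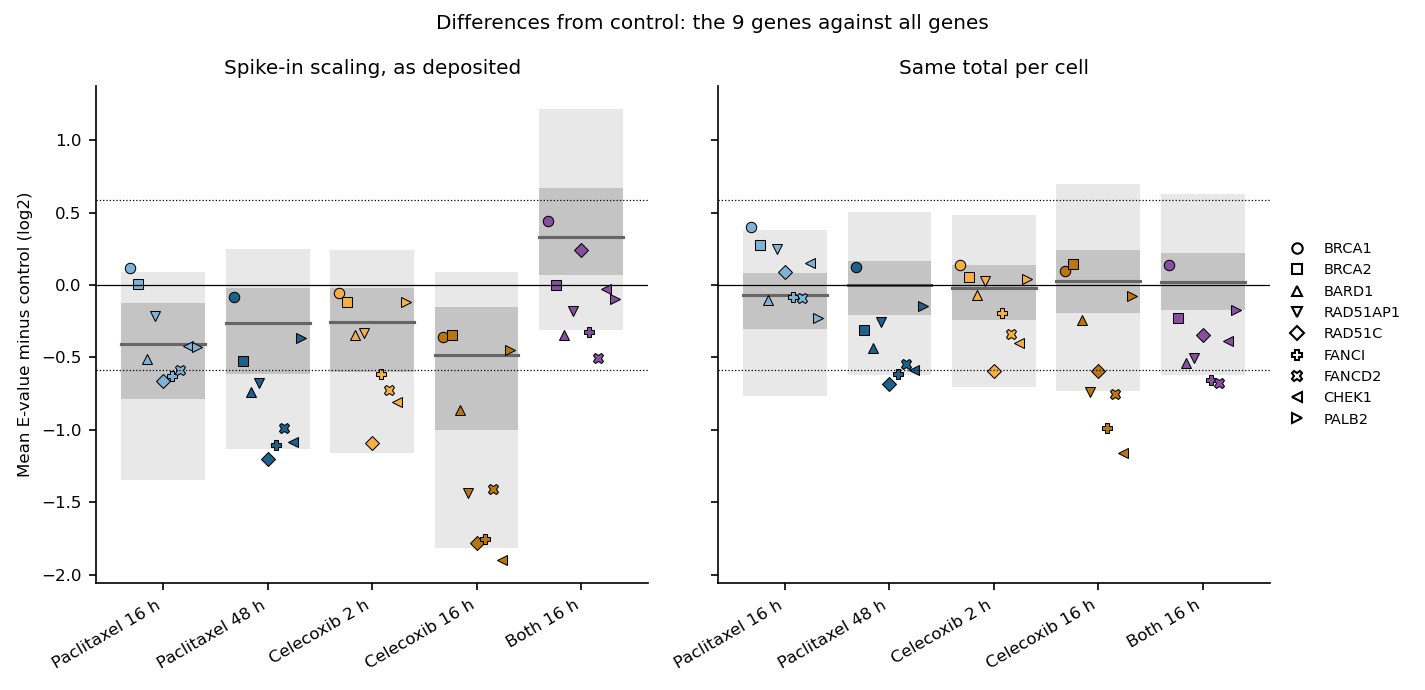
Mean E-value minus control (vertical axis, log2) of the 9 genes (symbols) in the 5 treatments (horizontal axis), as deposited (left) and at the same total per cell (right). Light and dark grey boxes span the 5th to 95th and the 25th to 75th percentile of all 9655 genes with a line at their median, and dotted lines mark 1.5-fold. In Cele16h cells CHEK1 lies under the light box on both scales, and in PacCele16h cells the 9 genes lie under the dark box or in it.

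At the same total per cell the 9 genes lay closer together, and fewer passed the limit except in PacCele16h cells. In Pac16h cells 0 of 9 were lower past the limit (all genes 10.0%), and their median was 0.09 beside −0.07 over all genes. In Pac48h cells RAD51C and FANCI were lower, 2 of 9 beside 5.78% of all genes, with a median of −0.43. The RAD51C value there was −0.23 in block 4, the block of the control cells, and −1.32 in block 2, which holds no control cells. In Cele2h cells RAD51C alone was lower, beside 8.12%, with a median of −0.07. In Cele16h cells CHEK1 (−1.16), FANCI (−0.99), FANCD2 (−0.75), RAD51AP1 (−0.74) and RAD51C (−0.59) were lower, 5 of 9 beside 7.95% of all genes, and the median was −0.59 beside 0.03. BRCA1, BRCA2 and PALB2 differed from control by 0.09, 0.14 and −0.07 there, and BARD1 by −0.24. In PacCele16h cells FANCD2 (−0.68) and FANCI (−0.65) were lower, beside 5.80% of all genes, and the median was −0.39 beside 0.02. FANCD2 was at −0.17 in block 1 and −1.37 in block 3, and FANCI at −0.61 and −0.72. None of the 9 was higher on this scale, where 1.40%, 3.28%, 3.31%, 7.37% and 5.96% of all genes were. Rescaling turned the sign of 11 of the 45 differences from control. Of these only that of RAD51C in Pac16h cells, from −0.67 to 0.09, had been past the limit as deposited.

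A drop of over 10 percentage points in the share of detecting cells was seen for 3 of 9 genes in Pac16h cells (all genes 26.9%), and for 8 of 9 in Pac48h cells (23.6%). It was seen for 8 of 9 in Cele2h cells (26.9%), 8 of 9 in Cele16h cells (28.9%) and 8 of 9 in PacCele16h cells (23.0%). The gene outside this count was RAD51C in Pac48h cells, in Cele16h cells and in PacCele16h cells, and PALB2 in Cele2h cells, with a difference of −9.14 percentage points. With a cell counted only at an E-value above 1, the drop was seen for 4, 9, 6, 8 and 7 of the 9 genes in the order Pac16h, Pac48h, Cele2h, Cele16h and PacCele16h, beside 46.2%, 30.1%, 35.6%, 45.9% and 15.0% of all genes. BRCA1 and BRCA2 left the count in Cele2h cells, each with 44.4% of cells above 1 against 50.0% in control. Cells of the treated conditions also had fewer detected genes in total, with the medians given above, and the part of this in the shares was not tested.

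**Figure D3:**
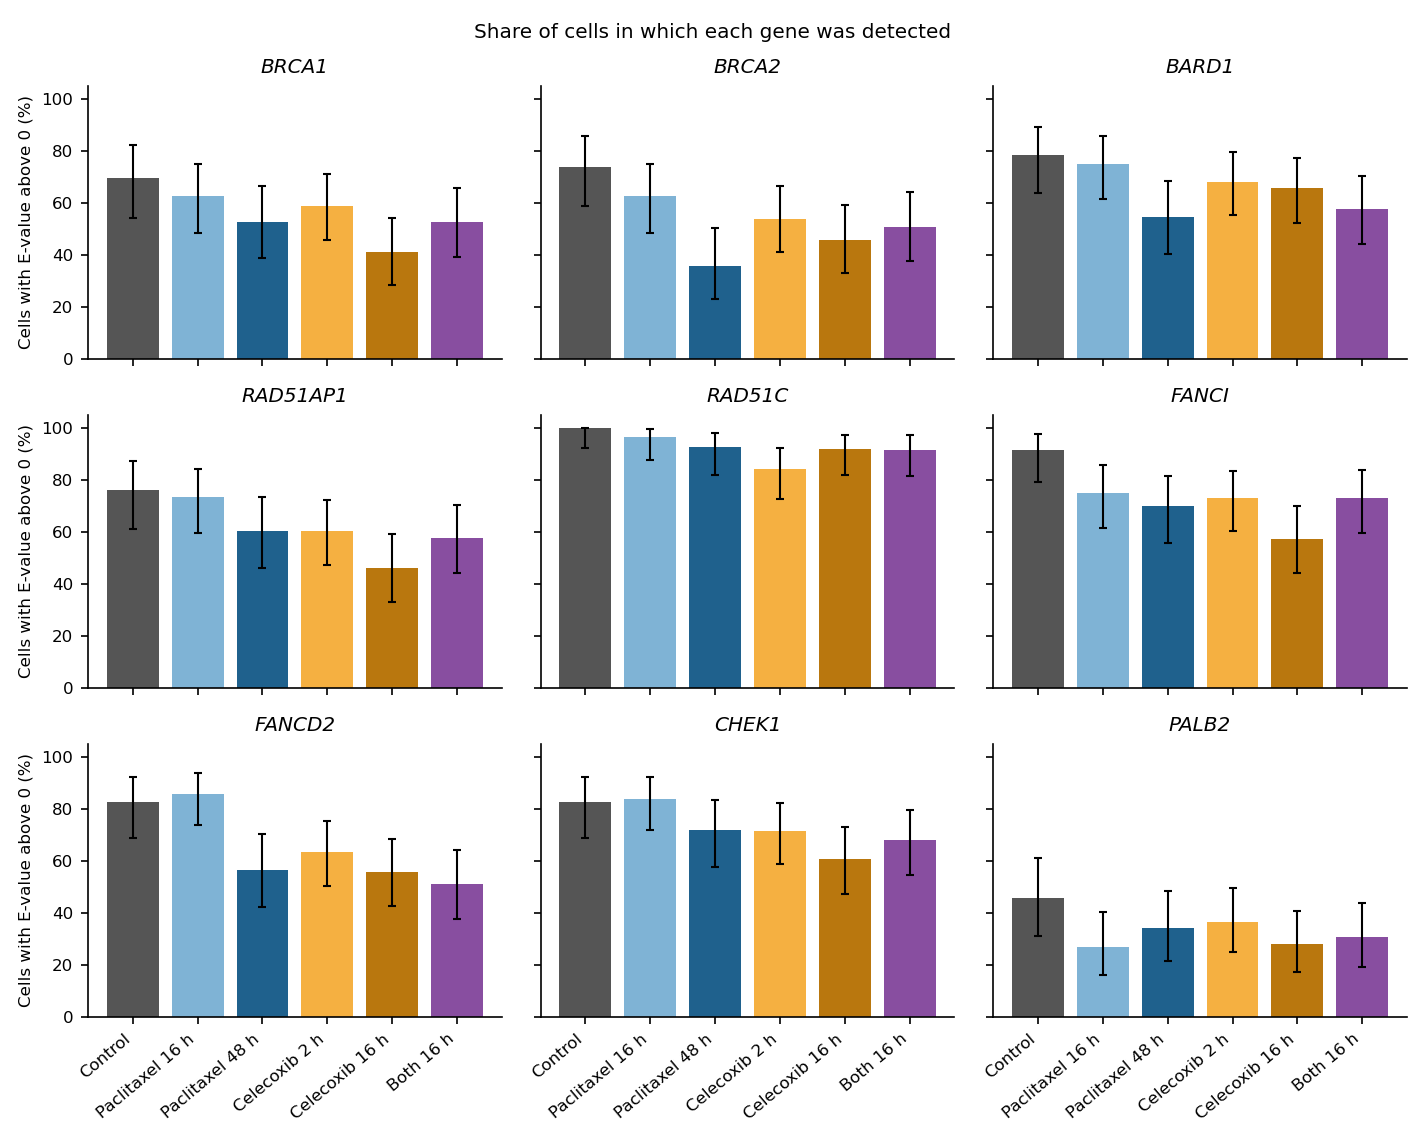
Percent of cells with an E-value above 0 (vertical axis) for each of the 9 genes in the 6 conditions (bars), with exact 95% intervals that cover counting error only. RAD51C is at or above 84.1% in each condition, BRCA2 is at 35.8% in Pac48h cells, and PALB2 is at or under 45.7% in each condition.

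Per cell, the number of the 9 genes detected had a median of 8 in control, 7 in Pac16h and 6 in Pac48h cells, 6 in Cele2h and 5 in Cele16h cells and 5 in PacCele16h cells. At least 7 of the 9 were found in 69.6% of control cells (54.3 to 82.3%), 57.1% of Pac16h and 37.7% of Pac48h cells, 44.4% of Cele2h and 31.1% of Cele16h cells, and 30.5% of PacCele16h cells (19.2 to 43.9%). At most 3 were found in 3 of 46 control cells, or 6.52% (1.37 to 17.9%), and in 20 of 61 Cele16h cells, or 32.8% (21.3 to 46.0%). The number of the 9 genes detected rose with the number of all genes detected, with Pearson's r over cells between 0.47 (Pac48h) and 0.65 within the conditions, both counted in the same libraries.

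Between times of the same drug the differences were mostly downward. From Pac16h to Pac48h cells CHEK1 alone of the 9 was lower past the limit (−0.66), beside 0.352% of all genes, and the median over the 9 was −0.46 beside 0.11. With totals made equal 3 of the 9 were lower (CHEK1 −0.74, RAD51C −0.77 and BRCA2 −0.59), beside 1.18% of all genes. Pac16h cells were in block 1 and Pac48h cells in blocks 2 and 4, so time and block cannot be told apart. Against control at the same total, RAD51C in Pac48h cells was at −0.23 in block 4 and −1.32 in block 2. From Cele2h to Cele16h cells FANCI (−1.14), RAD51AP1 (−1.11), CHEK1 (−1.09), RAD51C (−0.69) and FANCD2 (−0.68) were lower, beside 19.4% of all genes. FANCI, RAD51AP1 and CHEK1 also passed the limit at the same total, beside 3.90% of all genes. Cele2h cells were in block 2 and Cele16h cells in block 3, so the same limit holds for celecoxib.

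Against each drug alone at 16 h, the deposited values in PacCele16h cells were mostly the higher ones, as for most genes. With paclitaxel as the reference this held for 8 of the 9, with BRCA2 at −0.0043, and 2.04% of all genes had a difference below 0. With celecoxib it held for all 9, and 1.52% of all genes had a difference below 0. Compared with paclitaxel alone RAD51C was higher past the limit (0.91), 1 of 9 beside 62.5% of all genes, and the median over the 9 was 0.30 beside 0.80. After rescaling to the same total RAD51AP1 (−0.75) and FANCD2 (−0.59) were lower there, beside 1.64% of all genes. Compared with celecoxib alone RAD51C (2.02), CHEK1 (1.87), FANCI (1.43), RAD51AP1 (1.25), FANCD2 (0.91) and BRCA1 (0.80) were higher, 6 of 9 beside 66.0% of all genes, and the median of 0.91 was close to the 0.88 of all genes. CHEK1 alone was higher past the limit at the same total, by 0.77, beside 5.03%. By a ratio of linear means against control, BRCA1, BRCA2, RAD51C and CHEK1 were higher in PacCele16h cells, 4 of 9 beside 72.2% of all genes.

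Where a condition shared a block of sheet numbers with its reference, the differences could be taken within it. In block 4 alone the median over the 9 genes in Pac48h cells was −0.63, beside −0.21 over all genes, with CHEK1 at −1.13, FANCI at −1.15 and RAD51C at −0.68. At the same total in this block FANCI (−0.74), CHEK1 (−0.74) and FANCD2 (−0.63) were past the limit, and RAD51C was not. In block 1 the PacCele16h cells exceeded those with paclitaxel alone by 1.45 in RAD51C and 0.74 in FANCD2. After rescaling, the calls of RAD51AP1 (−0.44) and FANCD2 (−0.08) against paclitaxel alone were lost in this block, and CHEK1 (−0.68) was the 1 gene past the limit. In block 3 they exceeded those with celecoxib alone by 2.05 in CHEK1, 1.33 in FANCI, 1.29 in RAD51C, 0.71 in BARD1 and 0.63 in RAD51AP1. The calls of FANCD2 (0.0081) and BRCA1 (0.57) against celecoxib alone were lost there. With totals made equal CHEK1 stayed higher in block 3, by 0.96, and FANCD2 was lower, by −0.61. The block mattered most for FANCD2 in PacCele16h cells, which differed from control by 0.16 in block 1 and −1.40 in block 3, and for RAD51C, by 0.78 and −0.49.

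The deposited table also assigns each cell to a control, suppressive or activation state, which the authors' classifier drew from the expression of the same cells, so the values by state are a description only. In Pac16h cells the 23 cells of the control state had a mean FANCI of 3.22 and CHEK1 of 3.17, and the 31 cells of the suppressive state 1.499 and 2.04. RAD51AP1 was at 3.26 and 1.61 in these cells, and BRCA1 at 1.88 and 0.79. At the same total the gaps were widest in FANCI, with suppressive cells at 1.79 against 3.11, and in RAD51AP1, with 1.89 against 3.12. BARD1 was at 1.135 in suppressive cells against 1.376, and PALB2 was at 0.44 in both states. The same contrast over all genes is not given here. In Pac48h cells BRCA2 was detected in 53.6% of 28 cells in the control state and in 16.0% of 25 cells in the suppressive state. Suppressive cells also had fewer genes detected, with a median of 5840 against 6490 at 16 h and 5871 against 6572 at 48 h.

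Since homologous recombination is used in S and G2 phase, the 9 genes were set beside the mean of the S-phase genes of Seurat, 41 of which were listed once RAD51AP1 was taken out. Within the conditions, at the same total per cell, the median Pearson's r of the 9 genes with this score was 0.35 in control, 0.48 in Pac16h and 0.50 in Pac48h cells, 0.53 in Cele2h and 0.50 in Cele16h cells and 0.37 in PacCele16h cells. Over 8719 genes detected in at least 30% of all cells the median r was between 0.03 and 0.06. Their 90th percentile was 0.31 in control, which 5 of the 9 genes exceeded. In the treated conditions it was between 0.25 (Cele16h) and 0.28 (Pac16h), and between 7 and 9 of the 9 genes exceeded it. Cells of a condition share a run, and a cell's values share its library, so these r values are a description over between 46 and 63 cells. FANCI reached 0.77 in Cele16h cells and BRCA1 0.74 in Pac48h cells, while PALB2 stayed between −0.05 and 0.30. With the mean of the 52 G2/M genes listed, the median r of the 9 genes was between 0.26 (control) and 0.47 (Cele2h), and in PacCele16h cells it was 0.39 beside the 0.37 for the S-phase genes. RAD51AP1 had r between 0.58 and 0.70 with this mean in the 6 conditions, and FANCI reached 0.69 in Pac48h cells.

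The mean of the 9 genes in a cell rose with the S-phase score within every condition. Its Pearson's r was 0.76 in control (Spearman's rho 0.63), 0.81 in Pac16h and 0.88 in Pac48h cells, 0.81 in Cele2h and 0.87 in Cele16h cells and 0.83 in PacCele16h cells. With the G2/M mean the same r was between 0.63 and 0.72 over the 6 conditions. No mean of 9 other genes was set beside these values, so they are not to be read against the r of single genes. The S-phase score itself had a mean of 2.38 ± 0.50 in control (SD over cells) and was lower in all treatments, between 1.72 ± 0.80 in Cele16h cells and 2.00 ± 0.84 in Cele2h cells. The mean of the 9 genes was 1.98 ± 0.62 in control, 2.05 ± 0.79 in Pac16h and 1.60 ± 0.83 in Pac48h cells, 1.83 ± 0.92 in Cele2h and 1.5 ± 0.84 in Cele16h cells and 1.60 ± 0.65 in PacCele16h cells. The part of the S-phase score in the differences of the 9 genes was not tested.

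**Figure D4:**
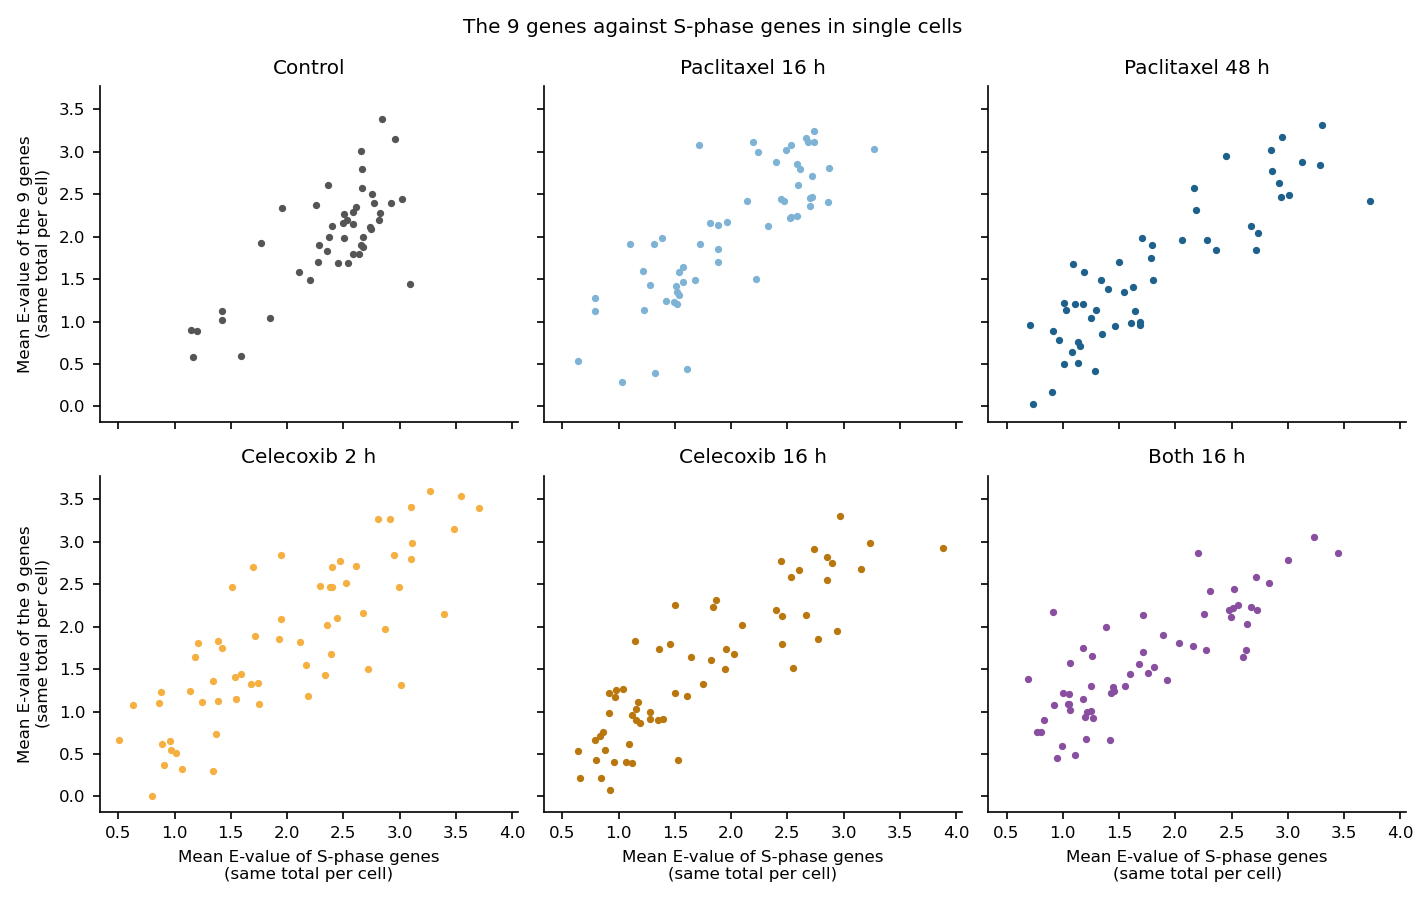
Mean E-value of the 9 genes (vertical axis) against the mean E-value of 41 S-phase genes (horizontal axis), both log2 at the same total per cell, for every cell (points) in 1 panel per condition. Most control cells lie at S-phase values above 2, with few below, while in the 5 treated conditions the cells spread from about 1 upward along the same rise.

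The genes nearest to each of the 9 over all 338 cells, with every gene centred within conditions at the same total, were mostly genes of DNA replication and mitosis. BRCA1 was nearest to CLSPN, an adaptor of the CHEK1 kinase (r = 0.54), and BRCA2 to GINS2, a subunit of the replicative helicase (0.53). BARD1 was also nearest to CLSPN, at 0.35. CHEK1 was nearest to ORC6, of the origin recognition complex (0.45), FANCI to PCLAF, a partner of the replication clamp (0.54), and RAD51C to GMNN, the licensing inhibitor geminin (0.33). RAD51AP1 was nearest to the spindle gene NUSAP1 (0.63), then UBE2C (0.63) and SPC25 (0.59). FANCD2 shared with it UBE2C, the ubiquitin enzyme of mitotic exit, as its nearest gene (0.46). PALB2 had no close neighbour, with CENPJ first at 0.25.

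Among the 9 genes themselves the pairs were loosely related. Over 36 pairs the median r at the same total was between 0.11 (PacCele16h) and 0.29 (Pac48h). FANCI and FANCD2 had the highest r of all pairs in control, 0.50, and between 0.20 and 0.46 in the treated conditions. BRCA1 and BARD1, which form a stable pair as proteins, had r = −0.11 in control and between 0.09 and 0.37 in the treated conditions. BRCA2 and PALB2 had 0.31 in control and between −0.14 and 0.17 in the treated conditions. Both BRCA1 and BARD1 were detected in 56.5% of control cells and in 27.9% of Cele16h cells, beside 54.4% and 26.9% from the product of their own shares. With 0 in many cells for most of these genes, such values are weak descriptions.

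Of 76 other genes of homologous recombination and the Fanconi pathway, 71 were listed and all of these were past the detection limit. In this list 23, 21, 13, 34 and 4 genes were lower past the limit, in the order Pac16h, Pac48h, Cele2h, Cele16h and PacCele16h, and 0, 0, 1, 0 and 15 were higher. As shares of the 71, those lower were 32.4%, 29.6%, 18.3%, 47.9% and 5.63%, beside 37.3%, 26.6%, 25.7%, 43.9% and 1.76% of all genes. Their medians were −0.45, −0.34, −0.30, −0.57 and 0.15, closer to those of all genes than the medians of the 9 in each treatment except Pac16h. In Cele16h cells at the same total 10 of the 71 were lower and 2 higher, or 14.1% and 2.82% beside 7.95% and 7.37% of all genes, with a median of −0.04. By role in Cele16h cells, as deposited, 7 of 12 genes of the Fanconi core complex and its ubiquitin enzyme were lower, 5 of 12 of damage signalling, 4 of 7 of end resection, 9 of 20 of strand exchange, 3 of 6 of the BRCA1 complexes and 4 of 9 of the nucleases and junction enzymes, all to be read beside the 43.9% of all genes. Of the 5 genes of the list outside these roles, 2 were lower as deposited. After rescaling, 3 of the core complex, 4 of strand exchange, 2 of damage signalling and 1 of the nucleases and junction enzymes were lower.

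The lowest differences of this list at the same total in Cele16h cells were in CENPX, a histone-fold partner of FANCM (−1.61), in UBE2T, the enzyme that passes ubiquitin to FANCI and FANCD2 (−1.47), and in FANCL, the ligase of the same step (−1.10). UBE2T had a mean E-value of 6.28 ± 0.98 in control and 3.66 ± 2.04 in Cele16h cells, and FANCL 2.72 ± 1.43 and 0.93 ± 1.24. The ligase, its conjugating enzyme and both of its substrates, FANCI and FANCD2, were lower past the limit on either scale. However, FANCL and UBE2T are named here because they were among the 3 largest falls of the list. The 12 genes of the core complex and its ubiquitin enzyme ran from −1.61 to 0.21 at the same total. Their median was −0.29, and 3 passed the limit, so this is no result for the whole pathway. The genes that were highest relative to control at the same total were RBBP8, an end resection factor (0.82), RAD51B (0.63) and ZSWIM7 (0.51). As deposited they were at −0.02, 0.20 and −0.62, so that the sign of RBBP8 and of ZSWIM7 turned.

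Other lists were set beside the 9 genes in the same way in Cele16h cells, where 43.9% of all genes were lower as deposited and 7.95% lower and 7.37% higher at the same total. Of 21 listed genes of the E2F and DREAM network 12 were lower as deposited, or 57.1%, and 3, or 14.3%, at the same total, with 0 higher on either scale. The 3 were the cyclin CCNA2 (−1.86), the activator MYBL2 (−1.19) and the kinase CDK2 (−0.75), the last of which was named after its value was seen. Of 10 genes of end joining 6 were lower as deposited and 1 at the same total (XRCC5, −0.76). Of 21 genes of mismatch and excision repair 11 were lower and 0 higher as deposited, and at the same total 2 were lower (PARP2 and TDG, −0.82 and −0.81) and 4 higher, or 9.52% and 19.0%. Of 12 p53 target and arrest genes 3 were lower and 1 higher as deposited, and 0 lower and 3 higher at the same total. Among the latter were GADD45A and MDM2, with 0.95 and 0.74 at the same total but 0.21 and −0.15 as deposited. In Pac48h cells 1 of the 12 was higher as deposited and 5 at the same total, beside 0.922% and 3.28% of all genes. CDKN1A was the highest of them there too, with 1.86 as deposited and 1.96 at the same total.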

How the data were processed

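Single A2780 cells were captured on Fluidigm C1 chips, and libraries were made by Smart-seq2 with 3 polyA-tailed spike-in RNAs. After trimming with Trim Galore, the authors aligned reads by Bowtie2 to the GENCODE version 28 transcripts (hg38) and obtained TPM from RSEM 1.3.0. TPM was divided by the most abundant spike-in RNA of each cell, cells low in housekeeping genes were left out, and genes seen in 30% or fewer of the cells in all conditions were dropped. The authors deposited log2 values, E = log2(N/10 + 1), for 338 of the 372 cells listed, and all 338 columns were matched to cells by name. The cells kept were 46 of 57 (Ctrl), 56 of 58 (Pac16h), 53 of 65 (Pac48h), 63 of 66 (Cele2h), 61 of 67 (Cele16h) and 59 of 59 (PacCele16h). The scaling sets each level relative to the RNA added per cell, so an error in the spike-in moves all genes of that cell together. Reads per cell are unknown, and doublets were not called, since counts are needed for that.

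Mean E-values were compared over cells with no test, since each condition is 1 sample, and a gene was counted beyond 1.5-fold. For the same total, the linear values of each cell were set to sum to the median total. Exact intervals follow Clopper-Pearson at 95%. The S and G2/M genes were those of Seurat 5.3.0, averaged per cell without the 9 genes. Named were the 9 genes, genes from the 3 of highest Pearson's r over cells with each of them (detection of 30% or more), and from each other list genes among the 3 largest falls and 3 largest rises at the same total in Cele16h cells (detection of 30% or more in Ctrl and Cele16h). Where other genes are named, this is said. Some genes of the lists are not reported here by name. The 9 genes and all lists were chosen with earlier results of these data known, and the roles within the list of 76 genes were written after its values were seen. The steps were tested on simulated data. Alternatives were the same total, linear means in a ratio, 1 instead of 10 as pseudocount, medians over cells, a 50% detection limit or no filter, each block of 96 sheet numbers alone, leaving out wells noted as 0 or debris, and detection as an E-value above 1. The work used R 4.3.3 and Python 3.11.15 with scipy 1.17.1, pandas 2.3.3, matplotlib 3.10.9 and numpy 2.4.6.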

Additional observations from a re-analysis of the deposited data

Results flagged for a closer look

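For 2 of the 9 genes the effect of adding a drug pointed in opposite directions with and without the other drug, beyond 1.5-fold both ways. Of all genes, 43.9% were lower past the limit with celecoxib alone, and 62.5% higher when it was added to paclitaxel. For paclitaxel these shares were 37.3% lower alone and 66.0% higher when added to celecoxib. The share of all genes that did both is not given here, so the 2 genes are not set apart from the general shift. These differences between effects were not tested, since each condition is 1 sample, and all values are differences in mean E-value as deposited. Adding celecoxib for 16 h to untreated cells changed RAD51C by −1.78, and adding it to paclitaxel by 0.91. Adding paclitaxel for 16 h to untreated cells changed RAD51C by −0.67, and adding it to celecoxib by 2.02. Adding paclitaxel to untreated cells changed FANCI by −0.63, and adding it to celecoxib by 1.43. At the same total per cell the RAD51C values were −0.59 and −0.44 for celecoxib and 0.09 and 0.25 for paclitaxel, and those of FANCI for paclitaxel were −0.08 and 0.33, so that on this scale neither gene passed the limit both ways. The part of the spike-in scaling in the deposited values was not tested.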

How the results depend on the processing

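With 1 sample per condition none of these values has a replicate error, and fewer expressing cells cannot be told apart from losses of single transcripts in the library. No paired analysis was possible because the result comes from no test and no replicate cultures are named. Of the differences of single genes under the alternatives, 340 moved by less than the SD over control cells and 5 by more, and 1 that was past the limit turned its sign, RAD51C in Pac16h cells, from −0.67 to 0.092 at the same total. Signs turned also among differences within the limit, to 11 of 45 in all at the same total. With detection taken as an E-value above 1, 14 of 54 shares moved out of their intervals. Leaving out the well noted as 0 or debris, no filter and the 50% limit moved no count by over 1.5 times.

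At the same total, the counts of the 9 genes lower past the limit were 0 (Pac16h), 2 (Pac48h), 1 (Cele2h) and 2 (PacCele16h), in place of 2, 6, 4 and 0. Those of the 71 other repair genes lower were 8, 6, 3 and 10 (Pac16h, Pac48h, Cele2h, Cele16h), and those higher were 2 in Pac16h cells, 2 in Cele16h cells and 2 in PacCele16h cells. By a ratio of linear means 1 of the 9 was higher in Pac48h cells and 4 in PacCele16h cells, where 72.2% of all genes were, and 1 was lower in Cele2h cells. The other repair genes counted 39, 37, 23 and 59 lower in the 4 single-drug conditions in the same order, and 1, 2 and 4 higher in Pac16h, Pac48h and Cele2h cells and 48 in PacCele16h cells. With a pseudocount of 1, the counts of the 9 that were lower were 5 (Pac16h), 8 (Pac48h), 6 (Cele2h), 9 (Cele16h) and 4 (PacCele16h). The medians over all genes were then −0.72, −0.48, −0.49, −0.89 and 0.38 in the same order. Of the other repair genes 46, 39, 34, 52 and 18 were lower over the 5 treatments, with 1 higher in Pac16h cells. By medians over cells 4 of the 9 were lower in PacCele16h cells. In block 1 alone 2 of the 9 were higher in PacCele16h cells, and in block 3 alone 2 were lower. The shares of all genes for the other counts by linear means, pseudocount, medians and blocks are not given here. These counts are therefore not set apart from the general shift. On the deposited scale the median r of the 9 genes with the S-phase score in control was 0.55. The cause of these moves was not tested.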

Other observations

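Most of the highest single cells for the recombination genes were PacCele16h cells. The highest E-values over all conditions of BRCA1 (6.00), BRCA2 (5.26), BARD1 (5.46), RAD51AP1 (7.27), RAD51C (8.15), FANCI (7.09), FANCD2 (6.06) and PALB2 (4.20) were in this condition, and that of CHEK1 (6.38) in Cele2h cells. These are deposited values, and PacCele16h cells had the highest median total, 0.49 above control on the log2 scale. The share of all genes with their highest cell in this condition is not given here, so this may be no trait of the 9 genes. All 9 genes were detected together in 8 of 46 control cells, 9 of 56 Pac16h and 3 of 53 Pac48h cells, 8 of 63 Cele2h and 2 of 61 Cele16h cells, and 4 of 59 PacCele16h cells. In 1 Cele2h cell none of the 9 was detected.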
